A study of Caenorhabditis elegans with 2 samples.

Results

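The regions described here are the autosomal peaks of eGFP-tagged NHR-21 that lie inside introns, outside the windows at protein-coding 5′ ends. A peak was included when it was in the authors' list of optimal peaks (intervals past a reproducibility threshold), lay on chromosome I, II, III, IV or V, and had its summit in an intron of a protein-coding gene. The summit also had to be in no exon of any gene and in no window from 1000 bp upstream to 250 bp downstream of a protein-coding 5′ end. Of 3647 optimal peaks, 2833 were autosomal and 363 met this rule. They were set beside 5052 other autosomal intronic intervals, taken from the 30000 pooled candidates by the same position rule and overlapping no optimal peak. A further 94 candidates overlapped an optimal peak without being one and were left out.

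The data came from 1 group. Chromatin immunoprecipitation and sequencing were done on whole larvae of Caenorhabditis elegans at the L2 stage, of mixed sex, in 2 biological replicates. The strain, OP361, carries the integrated transgene wgIs361 and the unc-119(tm4063) allele on chromosome III, so both replicates share the transgene and the mutation. The labels name nhr-21 as the antibody target, while the sample description names the eGFP fusion. No control was analysed here, and whole animals give no information on the tissue in which a site was bound. Cell-type markers cannot be read from a peak list, so the label of the animals was not checked.

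NHR-21 belongs to the nuclear hormone receptors, a family of zinc-finger transcription factors that is greatly expanded in nematodes. Introns can hold enhancers, alternative promoters and whole small noncoding genes. Many worm genes have several annotated transcript starts, and because trans-splicing replaces the start of many transcripts, the true start of transcription can be further upstream than the annotation shows. An intronic peak can therefore be inside one transcript of a gene and upstream of another.

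The sequences at the summits show what the strongest intronic peaks hold. The first 10 are the windows from 50 bp before to 50 bp after the summits of the 10 peaks with the highest signal whose sequence is shown, in order of signal. The last 6 are windows of further peaks that carry several of the words compared later. All are read 5′ to 3′ on the plus strand of WBcel235 (RefSeq), and capitals mark the word GAGAGA, the word AGACGC, the word ACGCAG, the word CACGTG, the word GCGCGC or the word CGCGCG on either strand. AGACGC and ACGCAG overlap each other in the 8-base word AGACGCAG, and GCGCGC and CGCGCG overlap in runs of alternating C and G.
Y111B2A.12, chrIII:12612600-12612700: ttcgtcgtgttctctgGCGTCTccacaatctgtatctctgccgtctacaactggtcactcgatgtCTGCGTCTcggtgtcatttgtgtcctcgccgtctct
epg-9, chrIV:2602143-2602243: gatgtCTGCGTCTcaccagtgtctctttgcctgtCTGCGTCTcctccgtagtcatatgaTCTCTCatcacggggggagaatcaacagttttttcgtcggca
pqn-41, chrIII:1925290-1925390: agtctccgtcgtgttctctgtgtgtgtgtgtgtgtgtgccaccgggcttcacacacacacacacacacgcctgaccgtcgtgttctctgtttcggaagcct
D2023.3, chrV:11802578-11802678: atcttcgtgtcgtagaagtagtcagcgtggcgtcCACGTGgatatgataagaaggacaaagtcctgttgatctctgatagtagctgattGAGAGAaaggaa
Y43F8B.2, chrV:19529370-19529470: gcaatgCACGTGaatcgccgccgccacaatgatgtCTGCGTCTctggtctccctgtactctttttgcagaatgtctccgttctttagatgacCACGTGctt
dhc-4, chrIII:10989605-10989705: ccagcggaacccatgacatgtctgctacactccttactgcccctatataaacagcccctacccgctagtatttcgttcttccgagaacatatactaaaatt
zfp-1, chrIII:8795836-8795936: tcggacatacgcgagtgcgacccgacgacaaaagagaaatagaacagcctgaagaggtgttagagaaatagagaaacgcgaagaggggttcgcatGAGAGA
pqn-41, chrIII:1921388-1921488: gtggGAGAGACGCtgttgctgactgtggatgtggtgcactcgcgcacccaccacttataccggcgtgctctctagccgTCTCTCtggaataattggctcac
pkg-2, chrIV:8527754-8527854: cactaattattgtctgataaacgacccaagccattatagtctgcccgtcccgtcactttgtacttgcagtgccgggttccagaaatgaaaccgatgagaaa
mnk-1, chrII:10552082-10552182: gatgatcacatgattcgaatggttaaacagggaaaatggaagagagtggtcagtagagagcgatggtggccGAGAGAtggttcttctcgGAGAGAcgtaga
nhr-31, chrIV:8028432-8028532: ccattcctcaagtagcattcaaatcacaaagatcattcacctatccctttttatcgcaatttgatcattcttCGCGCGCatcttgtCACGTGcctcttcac
pqn-41, chrIII:1926566-1926666: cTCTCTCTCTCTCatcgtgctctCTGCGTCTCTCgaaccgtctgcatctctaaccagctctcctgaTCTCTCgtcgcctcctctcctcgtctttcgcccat
skn-1, chrIV:5657218-5657318: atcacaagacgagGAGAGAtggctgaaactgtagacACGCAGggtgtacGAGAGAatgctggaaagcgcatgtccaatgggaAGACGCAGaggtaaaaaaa
Y62E10A.13, chrIV:13395367-13395467: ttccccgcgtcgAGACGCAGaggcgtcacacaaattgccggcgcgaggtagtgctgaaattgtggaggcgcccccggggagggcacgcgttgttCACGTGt
F36H9.2, chrV:1789634-1789734: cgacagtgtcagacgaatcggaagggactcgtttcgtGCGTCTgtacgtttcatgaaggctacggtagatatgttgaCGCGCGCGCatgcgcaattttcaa
fkh-7, chrIV:5604533-5604633: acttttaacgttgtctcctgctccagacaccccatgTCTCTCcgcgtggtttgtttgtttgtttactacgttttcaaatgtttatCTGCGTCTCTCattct

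Of these windows, those of Y111B2A.12, epg-9, Y43F8B.2, skn-1, Y62E10A.13, fkh-7 and the pqn-41 window that starts at 1926566 held AGACGC and ACGCAG. Those of dhc-4, pkg-2 and the strongest pqn-41 peak held none of the 6 words. The pqn-41 window that starts at 1925290 carried a run of alternating G and T, and its summit lay in masked repeat sequence. A match of letters is a description of the window and not evidence of a bound site.

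The signal of the intronic peaks overlapped that of the other classes of optimal peak. The authors' signal, a value their peak caller gave each interval, ranged from 52.5 to 707 over the 363 peaks, with a median of 83.3 and quartiles of 61.7 and 130. The medians were 88.2 for 1598 autosomal promoter peaks, 89.6 for 618 intergenic peaks and 79.03 for 254 exonic peaks. The other intronic candidates ranged from 9.85 to 52.2, with a median of 14.7. Signal set which candidates were optimal, so this gap is the rule itself. The signals just inside the threshold were 52.6 in srt-52, a chemoreceptor gene, and 52.5 in acs-13, an acyl-CoA synthetase gene. Just outside it were 52.2 in nhr-34, a nuclear receptor gene, and 52.2 where pmr-1 and smu-1 overlap.

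The share of candidates that were optimal was lower in introns than in promoter windows or intergenic sequence. Of 5509 autosomal intronic candidates, 6.59% were optimal (95% Wilson interval 5.96 to 7.28). The share was 11.8% over all 24021 autosomal candidates, 17.9% in promoter windows, 13.2% in intergenic sequence and 5.17% in exons. Of the 100 strongest optimal peaks of the series, 12 were intronic peaks. Chromosomes II and III held 83 and 81 of the 363 peaks, IV held 73, V held 65 and I held 61. Per chromosome the median signal was between 78.4 and 85.2.

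Both replicates contributed to the intronic peaks. Of the 363, 362 overlapped an interval in both replicate lists, and the exception was the srt-52 peak, which overlapped one in replicate 1 with a signal of 21.7 and none in replicate 2. The overlapping intervals had a median signal of 35.0 in replicate 1 (10.2 to 310) and 51.8 in replicate 2 (19.1 to 402). The signal was higher in replicate 2 at 316 peaks, although the scale of the signal may differ between lists. Among the 3647 strongest intervals of each replicate, 267 peaks were found in both (73.6%, 68.8 to 77.8), 37 in replicate 1 only, 50 in replicate 2 only and 9 in neither. This share was 75.5% for autosomal promoter peaks, 73.8% for intergenic peaks and 70.5% for exonic peaks. Across the 362 peaks the signals of the replicates had a Spearman rho of 0.72. Both replicates went into the pooled list that chose the peaks, so this agreement is not independent of the choice. The depth of either replicate is unknown.

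**Figure D1:**
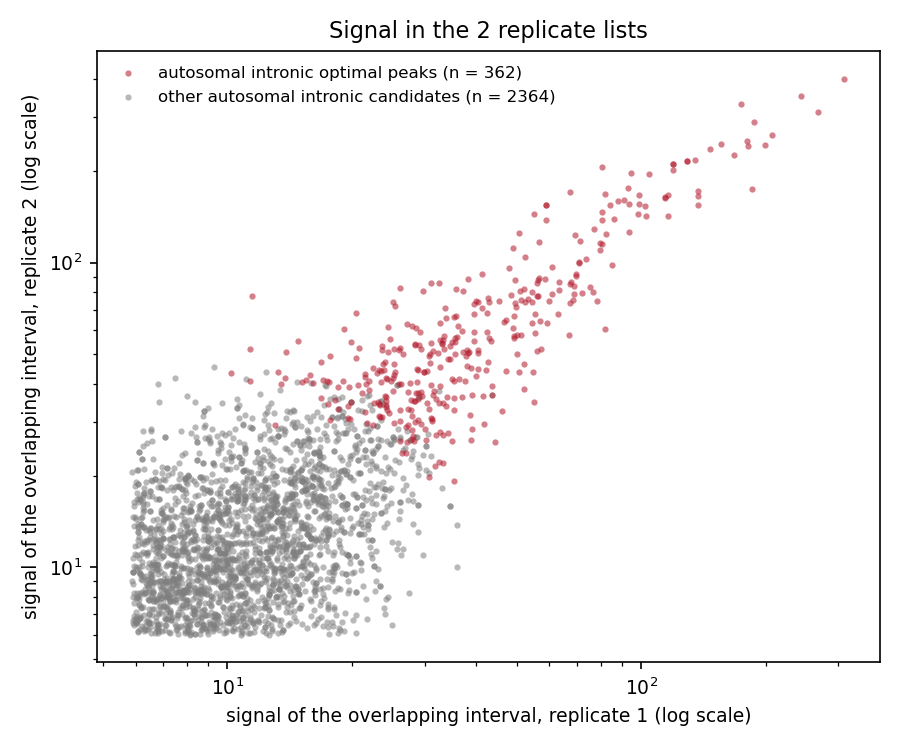
Signal of the overlapping interval in replicate 1 (horizontal) and replicate 2 (vertical), both on log scales, for 362 autosomal intronic optimal peaks (red) and 2364 other autosomal intronic candidates with an interval in both lists (grey). The optimal peaks spread along the diagonal up to 310 in replicate 1 and 402 in replicate 2. Their lowest values were 10.2 in replicate 1 and 19.1 in replicate 2, and the weaker ones overlap the range of the grey points.

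The strongest intronic peak lay in intron 4 of Y111B2A.12, at chrIII:12612466-12612829. Its signal was 707 in the pooled list, 310 in replicate 1 and 402 in replicate 2, with rank 19 and rank 26 in the replicate lists. The next was in epg-9, which encodes an autophagy protein, at chrIV:2602013-2602343, with 597 pooled, 244 in replicate 1 and 352 in replicate 2. Its summit was at −1051 bp from the closest 5′ end of epg-9, that is upstream of it. In pqn-41, which encodes a glutamine-rich protein, the peak at chrIII:1925031-1925524 had 576 pooled, 268 in replicate 1 and 313 in replicate 2.

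The other peaks among the 20 strongest were spread over 17 host genes in all. D2023.3 had a signal of 510 (175 in replicate 1 and 331 in replicate 2) at chrV:11802479-11802785. Y43F8B.2 had 475 (187 and 291) at chrV:19529248-19529549. In dhc-4, a dynein heavy chain gene, a peak of 471 (207 and 263) at chrIII:10989505-10989763 filled most of a 360 bp intron. An annotated snRNA gene lay within 250 bp of its summit. In zfp-1, which encodes a chromatin protein related to mammalian AF10, a peak of 436 (199 and 243) lay at chrIII:8795726-8796025. Of these 20 peaks, 12 were upstream of another 5′ end of the host, 10 were in a first intron of some transcript, and 5 lay within 250 bp of a noncoding gene.

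Hosts of signalling and translation genes followed. A peak of 411 (181 and 241) was in pkg-2, a cGMP-dependent protein kinase gene, and one of 397 (156 and 246) in mnk-1, a gene for a kinase activated by MAP kinases. The eif-2Bdelta gene, for a subunit of the translation initiation factor eIF2B, held one of 394 (168 and 226). W06H8.6 held one of 382 (146 and 236) and T28F4.1 one of 359 (185 and 175). The peak of 320 (119.1 and 202) in F01F1.3 had its summit in an intron of 43 bp, so most of that peak lay outside the intron. F58G1.7 held one of 311 (138 and 171) beside sup-6, annotated as an snRNA gene.

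The rest of these 20 were in nhr-19, egl-27 and nhr-31, apart from further pqn-41 peaks of 431 and 329. In nhr-19, a nuclear receptor gene, peaks of 355 (135 and 217) and 296 (137 and 166) lay in the same 4213 bp intron. In egl-27, whose product is related to the MTA proteins of the NuRD complex, a peak of 351 (129 and 216) lay at chrII:6842660-6842928. In nhr-31, a nuclear receptor gene, a peak of 294 (94.7 and 198) lay at chrIV:8028325-8028622. In each of these pairs the value of replicate 1 is given first. The order of the peaks was not the same in the replicates, and T28F4.1 was the member of this group with a higher signal in replicate 1.

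The introns that held peaks were long. The median length was 3333 bp for the 363 peaks (quartiles 1073 and 6824) and 1060 bp for the other candidates (457 and 3329.75). Introns of 5000 bp and over held 131 peaks, which was 36.1% (31.3 to 41.2), and 17.3% (16.3 to 18.4) of the other candidates. The difference was 18.8 percentage points, with a 95% Newcombe interval of 13.9 to 23.9. Introns under 500 bp held 12.4% of the peaks and 27.4% of the other candidates, a difference of −15 points (−18.2 to −11.02). Per Mb of intron that the rule allows, peaks had a density of 51.3 (42.9 to 60.9, exact Poisson) in introns of 5000 bp and over and 7.45 (5.46 to 9.94) in introns under 500 bp. The other candidates had 328 and 228 per Mb. Where introns of several transcripts of a host overlap, the shares and densities go by the shortest. Where a summit had several host genes, the densities go by the shortest of their introns and the shares by the longest. Neighbouring peaks are not independent, so these intervals cover counting error only.

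The peaks were concentrated upstream of further 5′ ends of their own host genes. Of the 363 summits, 205 (56.5%, 51.3 to 61.5) lay upstream of another annotated 5′ end of the host, compared with 31.0% (29.7 to 32.2) of the other candidates. The difference was 25.5 points (20.2 to 30.7). Within introns of 1000 bp and over, the shares were 72.2% of the peaks and 52.8% of the other candidates, a difference of 19.4 points (13.5 to 24.7). Within introns under 1000 bp they were 5.81% and 7.30%, a difference of −1.49 points (−4.97 to 5.66). Among hosts with several annotated 5′ ends, 76.8% of the peaks and 51.8% of the other candidates lay upstream of one, a difference of 24.99 points (19.3 to 29.98). Peaks had a density of 40.3 per Mb (35.0 to 46.2) in intron upstream of another 5′ end and 9.47 per Mb (8.05 to 11.1) downstream of every 5′ end, against 308 and 209 per Mb for the other candidates.

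For the 205 peaks upstream of another 5′ end, the next downstream 5′ end of the host was at a median distance of 2642 bp (1693 to 5133, quartiles), and for 1564 other candidates it was at 2871 bp (1780.5 to 5199). The closest 5′ end of the host in either direction was at a median of 1977 bp for the peaks and 1774.5 bp for the other candidates. The summit was upstream of that closest end in 105 peaks (28.9%) and in 13.3% of the other candidates. The closest protein-coding 5′ end of any gene was the host's own in 85.4% of the peaks and 83.8% of the other candidates, with an interval of −2.49 to 5.05 points for the difference.

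**Figure D2:**
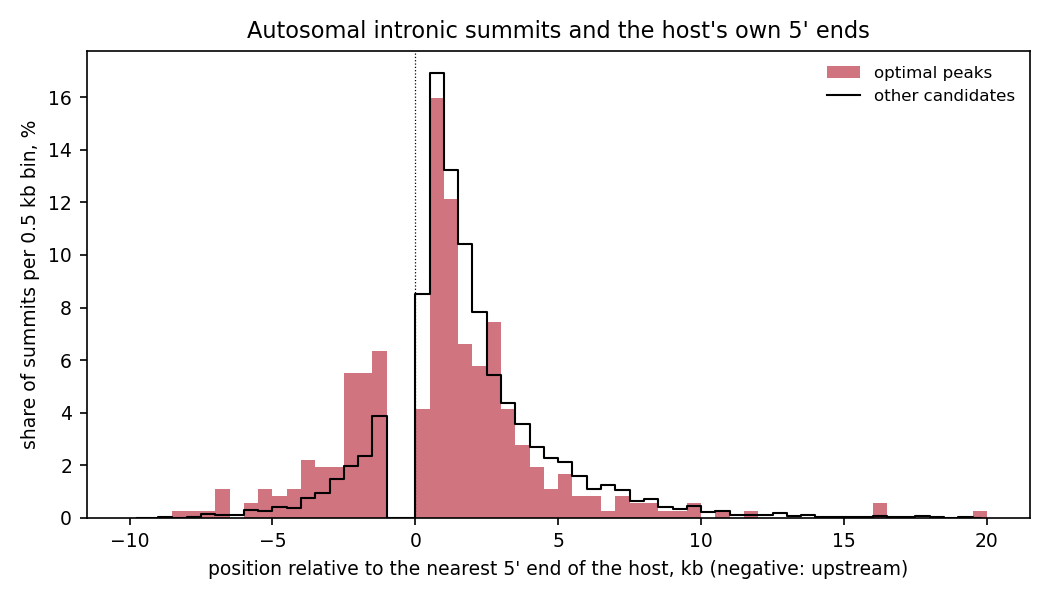
Position of intronic summits relative to the nearest annotated 5′ end of the host gene, in kb, as the share of summits per 0.5 kb bin for 363 optimal peaks (red bars) and 5052 other candidates (black line). Negative values are upstream, the gap next to 0 is the promoter window that the rule leaves out, and 28.9% of the optimal peaks lie left of 0, against 13.3% of the other candidates.

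First introns held 160 peaks (44.1%, 39.1 to 49.2) and 32.4% of the other candidates, where a first intron is the first of any transcript of the host. The difference was 11.7 points (6.47 to 16.95). Within introns of 1000 bp and over, the shares were 52.3% and 46.4%, and the difference of 5.91 points had an interval of −0.27 to 12.02. The position along the chromosome differed less. Autosome arms, taken as the outer 25% at either end, held 37.5% of the peaks and 42.5% of the other candidates, a difference of −4.99 points (−10.01 to 0.27). Chromosome centres had 25.2 peaks per Mb of allowed intron (22.01 to 28.7) and arms 10.7 (8.94 to 12.6), while the other candidates had 322 and 168 per Mb. By chromosome, the density of peaks was 22.7 per Mb on II (18.1 to 28.1) and 12.5 on I (9.59 to 16.1).

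**Figure D3:**
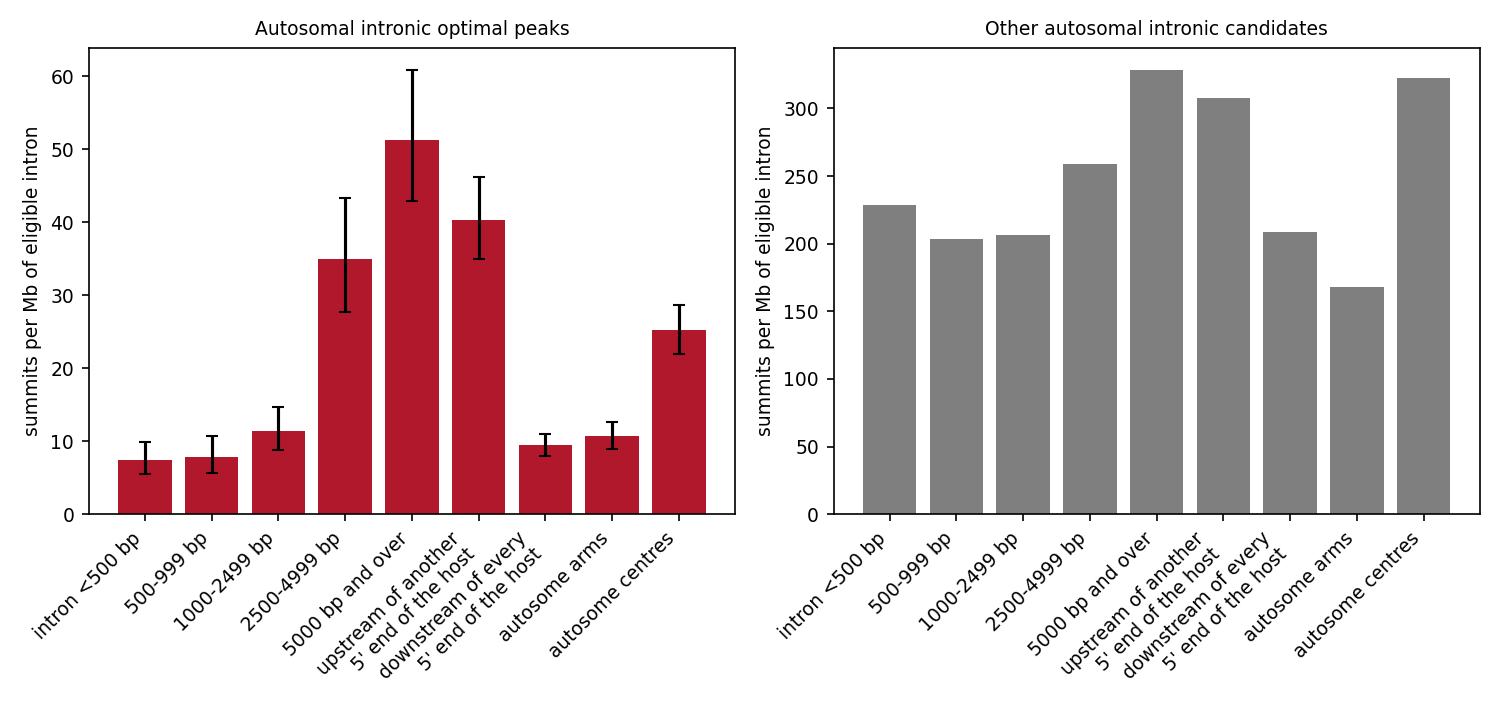
Summits per Mb of intron that the position rule allows, by intron length, by position relative to the 5′ ends of the host, and by chromosome arm or centre, for 363 optimal peaks (left, red, with 95% Poisson intervals) and 5052 other candidates (right, grey, on its own scale). The density of optimal peaks is 51.3 in introns of 5000 bp and over and 7.45 in introns under 500 bp.

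Few of the peaks lay in repeats. The summit was in masked repeat sequence in 54 peaks (14.9%, 11.6 to 18.9) and in 47.7% (46.3 to 49.1) of the other candidates, a difference of −32.8 points (−36.4 to −28.6). Among windows of 40 to 50% GC, the shares were 14.6% of 164 peaks and 24.6% of 874 other candidates, a difference of −9.97 points (−15.4 to −3.17). How uniquely reads could be placed in these repeats is not recorded in the lists, and its part in this difference was not tested. Interval widths were nearly constant in the other candidates, of which 5050 were 390 bp wide. Of the peaks, 285 (78.5%) had that width, and their widths ranged from 98 to 1838 bp. The widest peak, 1838 bp with a signal of 213, was at chrII:8819366-8821203. Its summit lay in an intron of F46C5.1, but the interval covered that whole gene (chrII:8820153-8821190). F46C5.1 was named with its values known.

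Peaks in short introns often sat beside small structural RNA genes. Within 250 bp of a tRNA, snRNA, snoRNA or miRNA gene lay 36 peaks (9.92%, 7.25 to 13.4) and 47 other candidates (0.930%), a difference of 8.99 points (6.30 to 12.5). Within introns under 1000 bp this was 30 of 86 peaks (34.9%, 25.7 to 45.4) and 28 of 2425 other candidates (1.15%), a difference of 33.7 points (24.5 to 44.3). Within introns of 1000 bp and over it was 6 of 277 peaks (2.17%) and 0.723% of the other candidates, a difference of 1.44 points (0.21 to 3.93). The 36 peaks had a median signal of 93.3, and their introns a median length of 447.5 bp. The other 327 had a median signal of 82.8 and introns of 3573 bp.

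By class, snoRNA genes, whose products guide RNA modification, lay beside 16 peaks (4.41%) and 0.337% of the other candidates, a difference of 4.07 points (2.38 to 6.71). The strongest were in pxn-1, a peroxidasin gene, beside ZK994.7 (signal 234), in rol-3 beside C16D9.11 (200), and in mix-1, a condensin gene, beside M106.6 (189). A tRNA gene lay beside 9 peaks (2.48%) and 0.396% of the other candidates, a difference of 2.08 points (0.89 to 4.25), and the peak in rsa-2 had 2 of them and a signal of 183. An snRNA gene lay beside 8 peaks (2.20%) and 0.0792%, a difference of 2.12 points (1.03 to 4.21), with both peaks of F58G1.7 (311 and 274) beside sup-6. Those peaks of F58G1.7 overlap. The noncoding genes here and in the next paragraph were chosen for naming with their values known.

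The miRNA genes were mir-2214 in B0361.11 (signal 73.1), cel-mir-90 in K01F9.2 (61.7) and cel-mir-71 in ppfr-1 (55.04). Genes annotated only as ncRNA lay beside 41 peaks (11.3%) and 3.05% of the other candidates, a difference of 8.25 points (5.34 to 11.9). Some of these peaks, such as those in rsa-2 and F58G1.7, were also counted beside tRNA, snRNA, snoRNA or miRNA genes. In all, 70 peaks lay beside a noncoding gene of any class. The class of piRNA genes went the other way, with 5 peaks (1.38%), all on chromosome IV, and 3.38% of the other candidates, a difference of −2.01 points (−2.96 to −0.14). Its interval included 0 with a distance of 100 bp (−1.88 to 0.42), with promoter windows of 2000 bp upstream (−3.003 to 0.63) and without replicate 1 (−2.49 to 0.26). No peak lay within 250 bp of a pseudogene, which by the limit of 3 counts allows a share of up to 0.826%, and 11 other candidates did (0.218%). Host and noncoding gene share the site, so which of them a peak belongs to cannot be told apart here.

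The summits were rich in G and C. The window from 50 bp before to 50 bp after the summit had 43.9 ± 8.14% GC (SD over 363 windows) at the peaks and 33.5 ± 8.15% at the other candidates. In the same peaks, a window 400 bp away had 36.1 ± 8.93%. Autosomal promoter and intergenic peaks had 44.96% and 42.5%. AATTAT, a word named after its values were seen, was in 2.75% of the peak windows and 18.2% of the other windows.

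**Figure D4:**
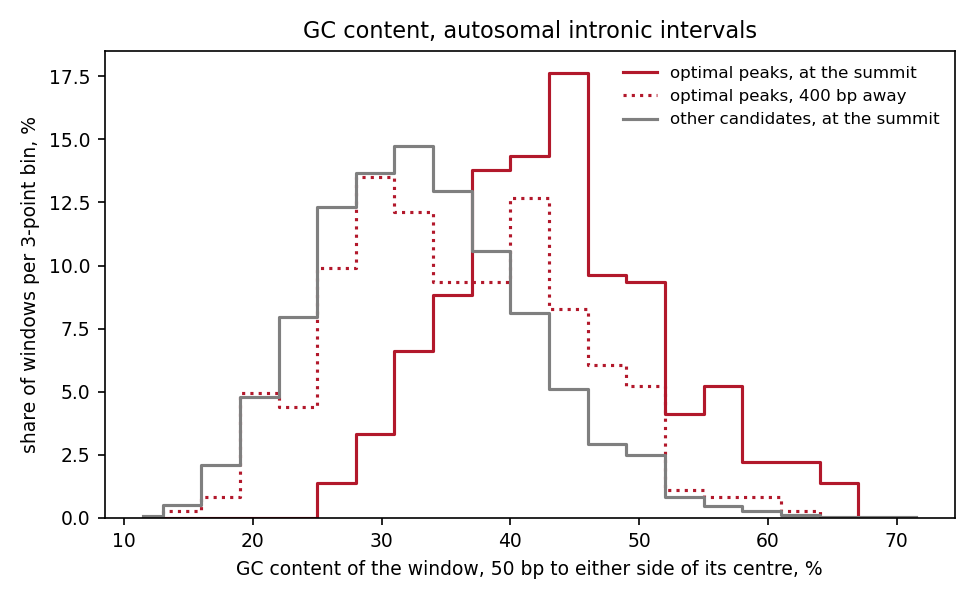
Share of windows, 50 bp to either side of their centre, in each 3-point bin of GC content, for 363 optimal peaks at the summit (solid red), the same peaks 400 bp away (dotted red) and 5052 other candidates at the summit (grey). The optimal summits centre on 43.9% GC, against 36.1% beside them and 33.5% at the other candidates.

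The word GAGAGA had the highest share in the peaks among the named words. It occurred on either strand in 95 peak windows (26.2%, 21.9 to 30.9) and in 7.21% of the other windows, a difference of 18.97 points (14.6 to 23.8). It was found in 6.61% of the windows 400 bp away, in 21.2% of autosomal promoter peaks and in 31.7% of intergenic peaks. Since GC content differed, the shares were also taken within windows of 40 to 50% GC, where GAGAGA was in 31.7% of 164 peak windows and 17.5% of 874 other windows (14.2 points, 7.05 to 22.04).

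A pair of overlapping words stood beside it. AGACGC was in 47 peak windows (12.9%) and 2.34% of the other windows, a difference of 10.6 points (7.51 to 14.5). ACGCAG was in 43 (11.8%) and 2.30%, a difference of 9.55 points (6.58 to 13.3), and 30 peaks held both. CGTCTC, whose reverse complement GAGACG overlaps AGACGC, was in 57 (15.7%) and 2.77%, a difference of 12.9 points (9.51 to 17.1). It was named because its ratio of peak share to other share was among the 6 highest in these windows. Its difference is therefore not independent of that choice. Within 40 to 50% GC, the differences were 6.40 points for AGACGC (1.75 to 12.5), 9.14 for ACGCAG (4.23 to 15.5) and 9.41 for CGTCTC (4.05 to 16.1). Among words of 8 bases, examined after these values were seen, GAGACGCA was in 30 peaks (8.26%) and 0.812% of the other windows, and AGACGCAG was in 30 (8.26%) and 0.990%. Autosomal promoter peaks held these in 8.39% and 9.07% of windows.

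CACGTG, the palindromic E-box read by many basic helix-loop-helix proteins, was in 30 peak windows (8.26%) and 2.26% of the other windows, a difference of 6.01 points (3.55 to 9.32), and 4.07 points (0.34 to 9.49) within 40 to 50% GC. The alternating words were in 21 peaks (5.79%) and 0.950% for GCGCGC and in 18 (4.96%) and 0.831% for CGCGCG. Within 40 to 50% GC the difference for GCGCGC was 1.48 points, with an interval of −0.82 to 5.65, and for CGCGCG 2.55 points (0.11 to 6.88). ACGCGC was in 5.51% and 1.54%, with a difference of 1.67 points (−1.09 to 6.23) within 40 to 50% GC. CCGGCG was in 3.31% and 0.614%, CGGCCG in 1.65% and 0.594%, and CCGCCC in 4.13% and 2.08%. Within 40 to 50% GC the differences were −0.27 points for CCGGCG (−1.63 to 2.91), −0.15 for CGGCCG (−1.50 to 3.02) and −2.10 for CCGCCC (−4.51 to 1.99). TGACTC was in 4.13% and 2.28%, a difference of 1.86 points (0.18 to 4.46), and of 0.15 points (−1.77 to 3.90) within 40 to 50% GC.

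The hexamer AGGTCA, which many nuclear receptors bind, was in 12 peak windows (3.31%) and 2.95% of the other windows, a difference of 0.36 points (−1.14 to 2.78). Its variant AAGTCA was in 3.86% and 4.59%, a difference of −0.74 points (−2.40 to 1.83). TGATAA, read by GATA factors, was in 13.5% and 10.7%, a difference of 2.79 points (−0.47 to 6.78), and of 7.58 points (2.49 to 14.1) within 40 to 50% GC. TATAAA, the TATA box, was in 7.16% and 12.3%, a difference of −5.17 points (−7.59 to −1.92), and of −0.77 points (−3.51 to 3.70) within 40 to 50% GC. Of the 4 words GAGAGA, then AGACGC, then ACGCAG and then CACGTG, 150 peaks held at least 1 and 213 held none. Of 2080 words, 1384 occurred in at least 10 peaks, and 965 of these had a higher share in the peaks and 419 a lower one. The limit of 10 was set on the peak windows alone, so words rare in the peaks were left out. The split between 965 and 419 depends on that limit and is not a result about the peaks.

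The 363 peaks lay in 258 host genes, which was 9.64% of the 2676 genes with an autosomal intronic candidate. One peak had 2 hosts. Of the hosts, 200 held 1 peak, 32 held 2, 15 held 3, 4 held 4, 3 held 5 and 4 held 6. The 26 hosts with 3 or more held 100 peaks, of which 97 were in introns of 1000 bp and over and 81 were upstream of another 5′ end of the host. A few peaks were not separate sites, since 11 overlapped another and merging left 357 stretches. Hosts with a peak had a median gene length of 8460 bp, and hosts with only other candidates 4782 bp. A longer gene has more intron in which a peak can lie.

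Hosts with an intronic peak often had a promoter peak too. An optimal peak in a promoter window of the same gene was found for 100 of 258 hosts (38.8%, 33.02 to 44.8) and for 439 of 2404 hosts with only other candidates (18.3%), a difference of 20.5 points (14.5 to 26.7). Genes with several 5′ ends have more promoter windows. Among hosts with 1 annotated 5′ end the shares were 23.9% of 88 and 15.3% of 1312, a difference of 8.54 points (0.58 to 18.6). Among hosts with several they were 46.5% of 170 and 21.8% of 1092, a difference of 24.7 points (16.9 to 32.5). Of the 26 hosts with 3 or more intronic peaks, 15 had a promoter peak.

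In pqn-41, 6 peaks lay in a single intron of 7776 bp on chromosome III, between 5′ ends of the gene. From upstream to downstream their signals were 431, 57.5, 329, 92.2, 576 and 284, and the most downstream summit was 1055 bp before the next 5′ end. The peaks of 329 and 92.2 overlap and share 1 interval in each replicate list. No promoter window of pqn-41 held an optimal peak. In daf-5, which encodes a Ski/Sno-related factor of the dauer TGF-beta pathway, 6 peaks with signals of 55.1, 106, 120, 120, 59.4 and 254 were spread over an intron of 14446 bp, and the strongest was 2674 bp before a 5′ end. That peak had 102 in replicate 1 and 154 in replicate 2.

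In T28B11.1, 6 peaks of 54.3 to 156 lay in an intron of 17091 bp, the strongest being 4724 bp before the next 5′ end. Its peaks of 55.2 and 65.7 overlap and share the same replicate values. In vhp-1, which encodes a phosphatase of MAP kinases, 6 peaks of 58.8 to 113 were spread over 4 introns, each upstream of another of its 6 annotated 5′ ends. In pkg-2, 5 peaks of 126 to 411 lay in an intron of 6824 bp, all of them 5071 bp or more before the next 5′ end. In ppfr-1, a regulatory subunit gene of protein phosphatase 4, 5 peaks of 55.04 to 208 lay downstream of all 4 annotated 5′ ends, so an upstream position did not hold for every such host. The ppfr-1 peaks of 56.6, 130 and 208 form a chain of overlapping intervals. Y67D8A.2 had 5 peaks of 56.1 to 114.

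**Figure D5:**
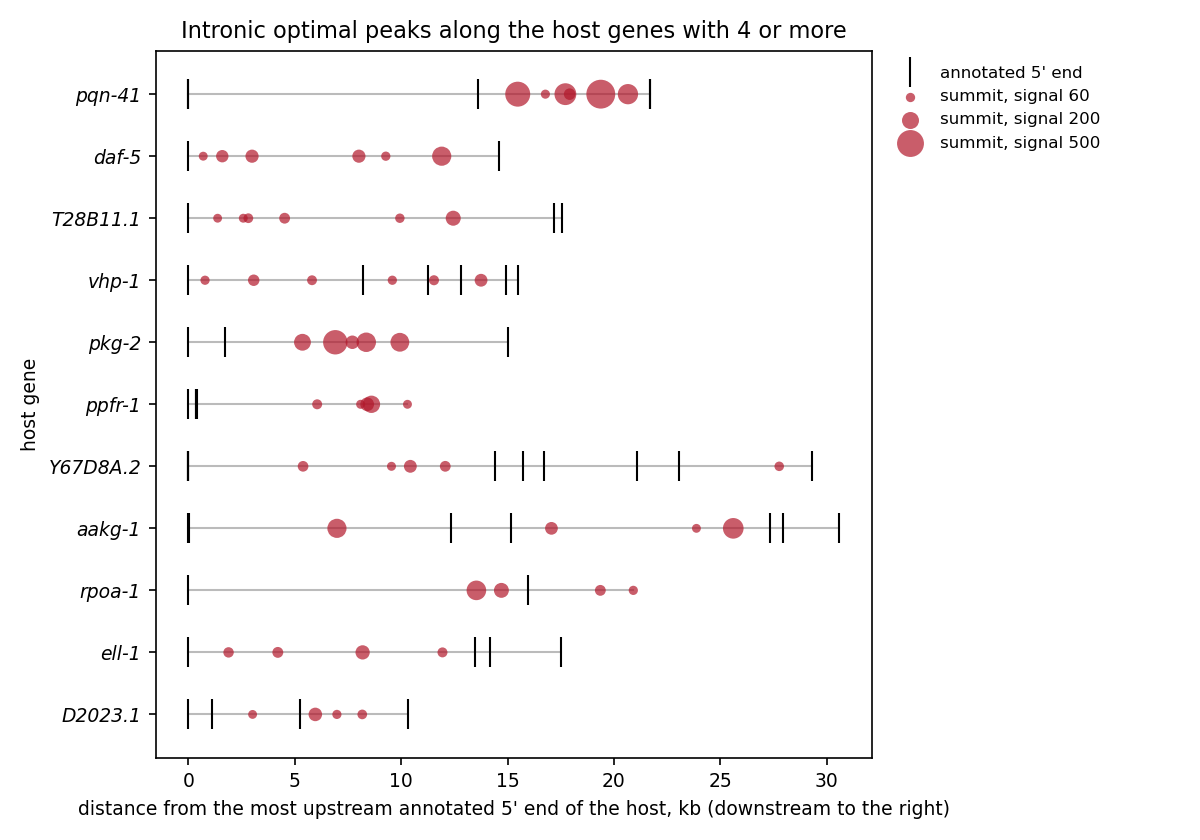
Intronic optimal peaks along the 11 host genes with 4 or more of them, as distance in kb from the most upstream annotated 5′ end (ticks are annotated 5′ ends, circle area is proportional to signal, grey lines run to the last 5′ end or summit). The pqn-41, daf-5 and pkg-2 peaks lie before a downstream 5′ end, and the ppfr-1 peaks lie after all of its 5′ ends.

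In aakg-1, a gamma subunit gene of the AMP-activated kinase, 4 peaks had signals of 254, 112, 54.5 and 294 in order along the gene, and the last was 1714 bp before a 5′ end. In rpoa-1, for the large subunit of RNA polymerase I, they had 265, 154, 81.5 and 58.8, and the first pair were upstream of the internal 5′ end. In ell-1, related to the elongation factor ELL, they had 75.1, 82.0, 141 and 69.0, all in an intron of 14129 bp. In D2023.1 they had 54.4, 127, 58.3 and 64.8.

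Regulatory genes were among the hosts with 3 peaks. In daf-16, the FOXO factor of insulin signalling, the signals were 57.3, 73.9 and 172, and the strongest (50.7 in replicate 1 and 125 in replicate 2) was 1597 bp before a 5′ end. In hlh-30, related to TFEB, a regulator of autophagy genes, they were 120, 109 and 61.2. In fkh-7, a forkhead gene, they were 86.3, 61.4 and 139. In egl-4, a cGMP-dependent kinase gene, they were 214, 73.8 and 62.4. In zfp-1 they were 82.8, 436 and 221, and in nhr-19 they were 355, 57.7 and 296, and nhr-19 had no 5′ end downstream of its peaks. In egl-27 they were 63.7, 351 and 67.4, where the peaks of 351 and 67.4 overlap.

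The remaining hosts with 3 peaks were mostly weaker. Y48C3A.5 had 237, 144 and 55.2, and nadk-2, an NAD kinase gene, had 159, 114.9 and 120 in an intron of 5052 bp. In sms-1, a sphingomyelin synthase gene, the signals were 56.0, 84.7 and 106. In sos-1, an exchange factor gene for Ras, they were 54.4, 85.0 and 83.3, and in akap-1, for an anchor protein of kinase A, 61.0, 78.2 and 59.6. The other hosts were Y111B2A.12 (707, 75.9 and 58.0), ccch-1 (84.6, 83.8 and 95.1) and tres-1 (57.9, 88.8 and 105).

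Gene lists were drawn up by gene name and are incomplete, so their counts and leading hosts hold for the listed genes only. Listed transcription factor genes were hosts in 19 of 121 cases with a candidate (15.7%, 10.3 to 23.2), beside 9.64% over all hosts. The leading ones were nhr-19, egl-27 and nhr-31, and nhr-31 held a further peak of 111. The other 16 included skn-1, the stress response factor, with 276 (114 in replicate 1 and 163 in replicate 2) at −1663 bp from the closest 5′ end, that is upstream of it. Among genes of larval timing and moulting, nhr-23 had a peak of 145 (67.1 and 85.1), nhr-85 one of 108 (47.1 and 65.1), myrf-1 one of 131 (41.3 and 91.8) and lin-42, a period-related gene in no list, one of 118 (45.3 and 74.8). In lag-1, the Notch pathway transcription factor gene, which no list held, the peaks had 240 (87.9 and 160) and 167 (70.9 and 99.9). The genes of the last 3 sentences were named after their values were seen, apart from skn-1, whose sequence is shown.

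Listed genes for kinases, phosphatases, cyclases and G protein signalling were hosts in 11 of 73 cases (15.1%, 8.63 to 25.002). Those with the highest signal were egl-4, pde-4, a phosphodiesterase gene (189 and 77.2), and unc-43, a calcium/calmodulin-dependent kinase gene (172 and 80.5). The kinase genes pkg-2 (411) and mnk-1 (397) and the phosphatase gene vhp-1 (113) were hosts too, but in no list. Listed genes for adhesion, guidance and matrix proteins were hosts in 7 of 28 (25%, 12.7 to 43.4). They were led by cdh-7, a cadherin gene (84.4), unc-52, the perlecan gene (84.1 and 52.6), and dys-1, the dystrophin gene (78.4). The peroxidasin gene pxn-1 (234) was in no list. Transporter genes were hosts in 9 of 66 (13.6%, 7.34 to 23.9), led by ncx-7, a sodium/calcium exchanger gene (110), mod-5, the serotonin transporter gene (82.6), and pgp-1, a P-glycoprotein gene (69.96). The ncx-7 peak lay beside a snoRNA gene and the pgp-1 peak beside a tRNA gene.

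Listed muscle and cytoskeleton genes were hosts in 4 of 27 (14.8%, 5.92 to 32.5). The highest signals were 148 in unc-70, the beta-spectrin gene, 142 in anc-1, a nuclear anchorage gene, and 61.4 in unc-119. The dynein heavy chain gene dhc-4 (471) was in no list. The unc-70 peak lay beside a snoRNA gene. The strain carries an unc-119 mutation and a transgene, and their part in the unc-119 peak (17.4 in replicate 1 and 40.9 in replicate 2) was not tested. No intronic peak lay within 50 kb of nhr-21. Genes for RNA-binding proteins were hosts in 3 of 28 (10.7%, 3.71 to 27.2), namely larp-1 (117), rbm-34 (90.9, beside a snoRNA gene) and asd-2 (88.6).

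Ion channel genes were hosts in 5 of 55 (9.09%, 3.95 to 19.6), led by twk-5, a potassium channel gene (146, beside a snoRNA gene), glr-2, a glutamate receptor gene (68.3, beside an snRNA gene), and clh-1, a chloride channel gene (58.3 and 58.1). Chemoreceptor genes were hosts in 2 of 60 (3.33%, 0.92 to 11.4), srh-2 (160) and srt-52 (52.6). None of 31 genes for neurotransmitter and neuropeptide receptors coupled to G proteins was a host, which by the limit of 3 counts allows a share of up to 9.68%, and none of 10 collagen genes, which allows up to 30%. No cytosolic ribosomal protein gene had an autosomal intronic candidate. The intervals of transcription factors and of adhesion genes began above 9.64%, the intervals of all other lists with a host included it, and no list was tested. The lists were chosen with earlier results of these data known. Hosts with a peak were longer than hosts with only other candidates (medians of 8460 and 4782 bp), and the list shares take no account of gene length. No list can be called enriched from these shares.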

How the data were processed

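ChIP-seq peak lists of 2 biological replicates were used, per the labels. The deposited lists were 30000 candidate intervals per replicate and for the pooled data, and the optimal list. Each interval had a signal and a −log10 q-value deposited by the authors, with coordinates in ce11. The signal served to describe and order intervals inside 1 list. Per the text listing deposited beside the lists, calling used ChIP and control alignments. Aligner, caller, settings and threshold were not given in the sources used here, and depth is unknown.

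Summits were placed on gene models of the Ensembl annotation, and sequence was read from the RefSeq genome of WBcel235, whose chromosome lengths match ce11. Words of 6 bases were counted on both strands in the window of 50 bp to either side of the summit. Shares carry 95% Wilson intervals, differences (optimal peaks minus other candidates) Newcombe intervals, and densities Poisson intervals. No p-values were computed. Named genes were hosts of the 20 strongest peaks, hosts with 3 or more peaks, the 3 strongest hosts of each list and those at the threshold. The peaks, lists and comparisons were chosen with earlier results of these data known. Python 3.11.15, NumPy 2.4.6, SciPy 1.17.1 and matplotlib 3.10.9 were used, and the scripts were tested on simulated data. Alternatives covered the promoter window, summit or midpoint, the peak threshold, replicates left out, overlap, window length and noncoding distance.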

Additional observations from a re-analysis of the deposited data

How the results depend on the processing

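Differences are in percentage points, optimal peaks minus other candidates. With the stronger 50% of the optimal peaks, there were 164 intronic peaks, 2.98% of candidates were optimal, 33 hosts were in a list, against 60, and the difference near miRNA genes reversed to −0.17. The difference for first introns was 5.91 in introns of 1000 bp and over, with an interval that included 0. The difference for autosome arms had an interval below 0 with the midpoint (−5.75), in introns of 1000 bp and over (−8.99), with promoter windows of 2000 bp (−6.57) and 500 bp (−4.83) upstream, and with one replicate left out (−11.6 to −6.42). Within 40 to 50% GC, the differences for CGGCCG, for CCGCCC and for CCGGCG reversed to −0.15, −2.10 and −0.27. Within introns under 1000 bp, the difference upstream of a further 5′ end reversed to −1.49, with an interval that included 0. The cause was not tested. The comparisons limited by GC content, intron length or the number of annotated 5′ ends, the position upstream of a further 5′ end, repeats and 8-base words were chosen after seeing the data. Under the other alternatives run, the difference upstream of a further 5′ end was 19.4 to 29.6. The differences in repeats (−35.0 to −9.97), near the 4 small RNA classes (1.44 to 33.7), in GC (8.60 to 12.3) and for promoter peaks of hosts (8.54 to 24.7) kept their direction under the alternatives run for them. No paired analysis was possible because there was 1 group. Leaving out a replicate replaced the pooled peaks by the strongest intervals of the other replicate. Depth is unknown, so weak intronic binding below the threshold cannot be assessed.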
